A study of Rattus norvegicus with 21 samples.

Results

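Exocytosis and vesicle fusion genes were followed in anterior pituitaries of male rats from the ACI, Copenhagen (COP) and Brown Norway (BN) inbred strains. The genes were taken by name from the array's annotation: the synaptotagmins (Syt), synaptotagmin-like (Sytl), Doc2, syntaxin (Stx), syntaxin-binding (Stxbp), Vamp, complexin (Cplx), Unc13, Rims, Rab3 and Rab27 families, with Snap25, Snap23, Nsf, Napa, Napb, Cadps and Cadps2. The rule matched 117 of 31042 probe sets, or 83 of the 14217 genes that had a probe set with 1 symbol, and expression was not used to choose them. A probe set is the group of oligonucleotide probes that measures 1 transcript on the array. Because the rule took every symbol that begins with Rab3, it also took 11 genes of the Rab30 to Rab39 series, which are a different set of Rab GTPases, and these are described apart.

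The rats had received at 9 weeks of age a subcutaneous implant that held 5 mg of diethylstilbestrol (DES), a synthetic estrogen, or an empty implant as the control, and were killed at 21 weeks, after 12 weeks. All had also been injected with BrdU, a label of DNA synthesis, at 50 mg/kg shortly before death. ACI and BN rats came from Harlan and COP rats from Charles River, so that breeder and strain cannot be told apart between COP and the other strains. Total RNA of the gland was measured on 21 Affymetrix Rat Genome 230 2.0 arrays, 4 from DES-treated and 3 from control rats of each strain. The series description counts each array as a separate biological replicate, whereas the sample notes speak of independent replicates numbering 1 fewer in each group than its arrays. Here each array was taken as 1 rat, and if 2 arrays of a group share a source, the p values below are too small.

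Signals are in arbitrary units on a linear scale, and medians lay between 118.8 and 151.45 on the arrays. Log2 changes are DES minus control after 16 was added to each signal, which understates the change of dim genes, and they are given with their standard error (SE) from a linear model fitted with limma to all probe sets. Folds were taken from these changes. A change was called at a Benjamini-Hochberg adjusted p below 0.05. A total of 75 of the 83 genes passed the filter on low signals, and Cplx3, Rab37, Rab39a, Rims3, Stx11, Syt2, Sytl3 and Unc13d did not. A group mean below 67 units, the lowest of the arrays' 40th percentiles, was taken as near the floor, and 13 of the 75 genes had at least 1 such mean. Prl and Gh1, the hormones that define lactotrophs and somatotrophs, averaged 48770 and 44690 units in DES-treated BN rats and 27610 and 23460 units in BN controls, and averaged at least 23460 units in every group. Spike-in transcripts of the phage gene cre averaged 17272 units on arrays numbered 1 and 2 and 24060 units on those numbered 3 and 4, so that changes were also computed within each of these sets. The same transcripts averaged 23353 units on the 12 DES arrays and 15952 on the 9 control arrays, and within arrays numbered 1 and 2, 20118 units on DES arrays and 14425 on control arrays. The part of this difference in the changes with DES was not tested. A bulk measurement of this kind cannot tell fewer cells of a type from less RNA per cell.

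Pituitary cells store hormones in dense-core granules and release them when calcium enters the cell. A granule is brought to the plasma membrane and tethered by Rab3 and Rab27 GTPases with their effectors. It is primed by proteins of the Cadps and Unc13 families, and fuses when a SNARE protein on the vesicle (a Vamp) zips together with SNAREs on the target membrane (a syntaxin and Snap25 or Snap23). Many, though not all, synaptotagmins and Doc2 proteins sense calcium. Complexins hold the assembled SNAREs before the trigger, and Nsf with its adaptors Napa and Napb pulls the spent complexes apart for reuse. Other syntaxins and Vamps serve fusion inside the cell, between the endoplasmic reticulum, the Golgi and endosomes.

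With DES the exocytosis genes changed in both directions. In ACI, 18 of 75 genes were called higher and 28 lower, where 23.2% and 32.5% of all 11750 genes tested were called higher and lower. In COP, 13 were called higher and 29 lower, beside 21.6% and 28.1% of all genes. In BN, 11 were called higher and 21 lower, beside 16.9% and 22.6% of all genes. The members' shares were 24% and 37.3% for ACI, 17.3% and 38.7% for COP and 14.7% and 28% for BN, of which the share called lower in COP lay furthest from that of all genes.

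A total of 9 genes were called higher in all 3 strains, with 11.7% of all genes so called, and 14 were called lower in all 3, with 15.9% of all genes. A further 20 genes were called in no strain, among them the adaptors Napa and Napb, the syntaxins Stx12, Stx16, Stx17 and Stx18, and Vamp8. The share of all genes called in no strain was not computed. Without the Rab30 to Rab39 genes, 8 of 66 were called higher and 12 lower in all 3 strains. The median log2 change over the 75 genes was -0.21 for ACI, -0.29 for COP and -0.12 for BN, against -0.13, -0.08 and -0.06 over all genes. Changes ran from -4.32 to 2.43 for ACI, from -3.54 to 1.88 for COP and from -2.33 to 1.44 for BN. Centring each array on its own median moved the median change of all genes by 0.21 for ACI, 0.19 for COP and 0.17 for BN, and the members' calls then stood at 19 higher and 19 lower for ACI, 15 and 22 for COP, and 15 and 11 for BN. The shares of all genes called were not computed for the centred arrays or for the sets of array numbers. Within the arrays numbered 1 and 2, 17 genes were called higher and 30 lower for ACI, 16 and 29 for COP, and 14 and 15 for BN. Within those numbered 3 and 4, with 1 control array per strain, 14 and 20 were called for ACI, 10 and 17 for COP, and 10 and 14 for BN.

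**Figure D1:**
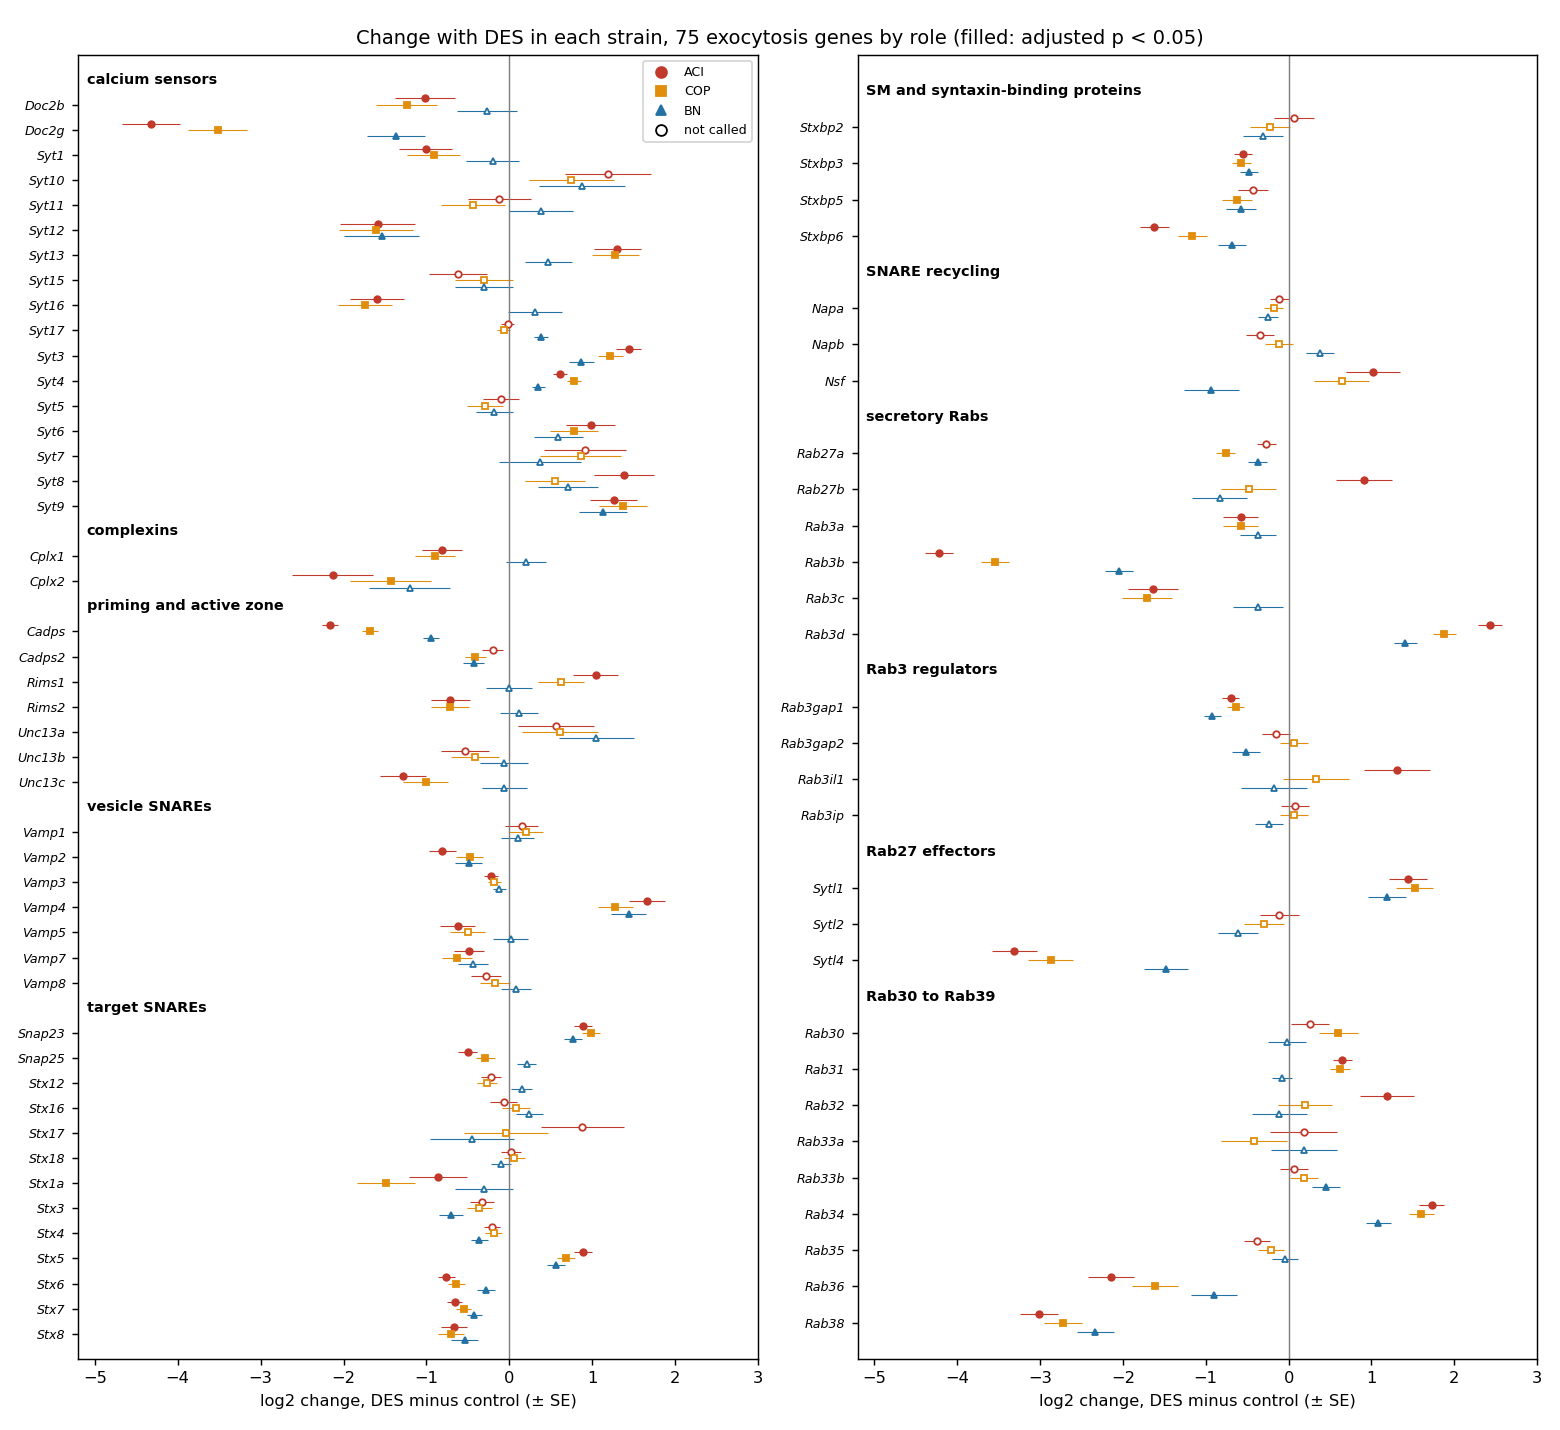
The log2 change with DES (DES minus control, horizontal axis, with its standard error) of each of the 75 tested genes in ACI (circles), COP (squares) and BN (triangles), grouped by role. Filled symbols passed an adjusted p of 0.05. The role of calcium sensors holds every tested Syt and Doc2 gene, taken by name. Genes of 1 role lie on both sides of 0 in most groups, with Rab3d, Vamp4 and Rab34 far to the right and Rab3b, Doc2g, Rab38 and Sytl4 far to the left.

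The widest split was among the Rab3 GTPases, which sit on secretory vesicles. Rab3d, known as a granule GTPase of exocrine glands, rose in every strain. Rab3d signals were 6068, 5948, 5728 and 5089.9 units in DES-treated ACI rats, against 1123, 1068 and 955 units in ACI controls. They were 5422, 5748, 5486 and 5286 in DES-treated COP rats and 1500.3, 1655 and 1289 in COP controls. BN rats had 3649.8, 3689, 2246 and 3169 with DES, and 1086, 1357 and 1088 as controls. In each strain all DES-treated rats lay above all controls. The rise was 5.39-fold in ACI (log2 change 2.43 ± 0.14 SE, adjusted p = 3.66e-12), 3.68-fold in COP (log2 change 1.88 ± 0.14 SE, adjusted p = 3.55e-10) and 2.66-fold in BN (log2 change 1.41 ± 0.14 SE, adjusted p = 6.81e-08).

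Rab3b, another vesicle Rab of this family, moved the other way and was the most depressed of the brighter members. Rab3b signals were 116, 215, 178 and 211 units in DES-treated ACI rats, against 3459, 3792 and 3453 units in ACI controls. In COP they were 262, 277, 172 and 256 with DES, against 3062, 3008 and 2769.9 in controls. In DES-treated BN rats the values were 593, 656, 661 and 483, against 2564, 2474 and 2473 in BN controls. The groups were separate in each strain, and the loss was 18.6-fold in ACI (log2 change -4.22 ± 0.17 SE, adjusted p = 1.69e-14), 11.6-fold in COP (log2 change -3.54 ± 0.17 SE, adjusted p = 3.95e-13) and 4.14-fold in BN (log2 change -2.05 ± 0.17 SE, adjusted p = 5.53e-09).

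The other members of the family changed less. Rab3c averaged 77 ± 18.3 units (SD, n = 4) in ACI rats given DES and 282 ± 104 units (SD, n = 3) in ACI controls and was called lower in ACI (log2 change -1.64 ± 0.30 SE, adjusted p = 8.92e-05) and COP (log2 change -1.71 ± 0.30 SE, adjusted p = 7.61e-05) but not in BN (log2 change -0.37 ± 0.30 SE, adjusted p = 0.369). Rab3a, the abundant Rab of synaptic vesicles, was called lower by 0.58 on the log2 scale in both ACI and COP, with adjusted p of 0.03 and 0.0337, and its BN change was -0.37 (adjusted p = 0.202). Both Rab3a calls were lost when the arrays were centred on their medians. Rab27a, which brings granules to the membrane, was called lower in COP (log2 change -0.76 ± 0.12 SE, adjusted p = 1.35e-05) and BN (log2 change -0.37 ± 0.12 SE, adjusted p = 0.0162), and its change in ACI was -0.27 (adjusted p = 0.0527).

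Rab27b, its close relative, differed between strains. Rab27b signals were 279.7, 476, 515 and 635 units in DES-treated ACI rats, against 192, 268 and 257 units in ACI controls. They were 219.5, 281, 511 and 378 in DES-treated COP rats and 417, 364 and 673 in COP controls. BN rats had 139, 154, 66.2 and 253 with DES, and 209, 247 and 342 as controls. Only the ACI rise was called, at 0.91 ± 0.33 (log2, SE, adjusted p = 0.0286), and it was not called when ACI control replicate 1 or ACI DES replicate 2, 3 or 4 was left out. With the array number as a replicate block the BN fall was called too, at -0.99 (adjusted p = 0.00805). A second tested probe set of Rab27b was called higher in ACI, at 0.73 (adjusted p = 0.00441), and lower in COP, at -0.70 (adjusted p = 0.00762). Of the regulators of the Rab3 cycle, Rab3gap1, part of the complex that switches Rab3 off, was called lower in all 3 strains, by 0.70, 0.64 and 0.92 on the log2 scale in ACI, COP and BN, while a second, dimmer probe set of it was called in none. Rab3il1, an exchange factor that switches Rab3a on, was called higher in ACI alone, at 1.31 ± 0.40 (log2, SE, adjusted p = 0.00904), with its control mean near the floor.

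The synaptotagmin-like proteins tie Rab27 on the granule to the membrane, and the 3 tested members split 3 ways. Sytl4, or granuphilin, which docks granules in endocrine cells, fell. Sytl4 signals were 166, 186, 121 and 108 units in DES-treated ACI rats, against 1368, 1574 and 1731 units in ACI controls. In COP they were 210.2, 339, 216 and 246 with DES, against 2769, 1967 and 1283 in controls. In DES-treated BN rats the values were 894, 826, 774 and 518, against 2528, 2879 and 1259.5 in BN controls. DES-treated rats were below controls in each strain. The fall was 9.92-fold in ACI (log2 change -3.31 ± 0.27 SE, adjusted p = 1.03e-09), 7.31-fold in COP (log2 change -2.87 ± 0.27 SE, adjusted p = 1.64e-08) and 2.79-fold in BN (log2 change -1.48 ± 0.27 SE, adjusted p = 0.000184).

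Sytl1 rose in all 3 strains from a low level. Sytl1 gave 340, 438, 462 and 394 units in DES-treated ACI rats against 146, 158 and 117 in ACI controls, 474, 446, 419.9 and 246 in DES-treated COP rats against 128, 123 and 121 in COP controls, and 177, 238, 189 and 359.9 in DES-treated BN rats against 114, 88.1 and 79.1 in BN controls. Groups did not overlap in any strain, and the log2 changes were 1.44, 1.52 and 1.19 in ACI, COP and BN (adjusted p = 1.6e-05, 1.18e-05 and 0.000326). Sytl2 was called in no strain, with changes of -0.11, -0.30 and -0.61.

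**Figure D2:**
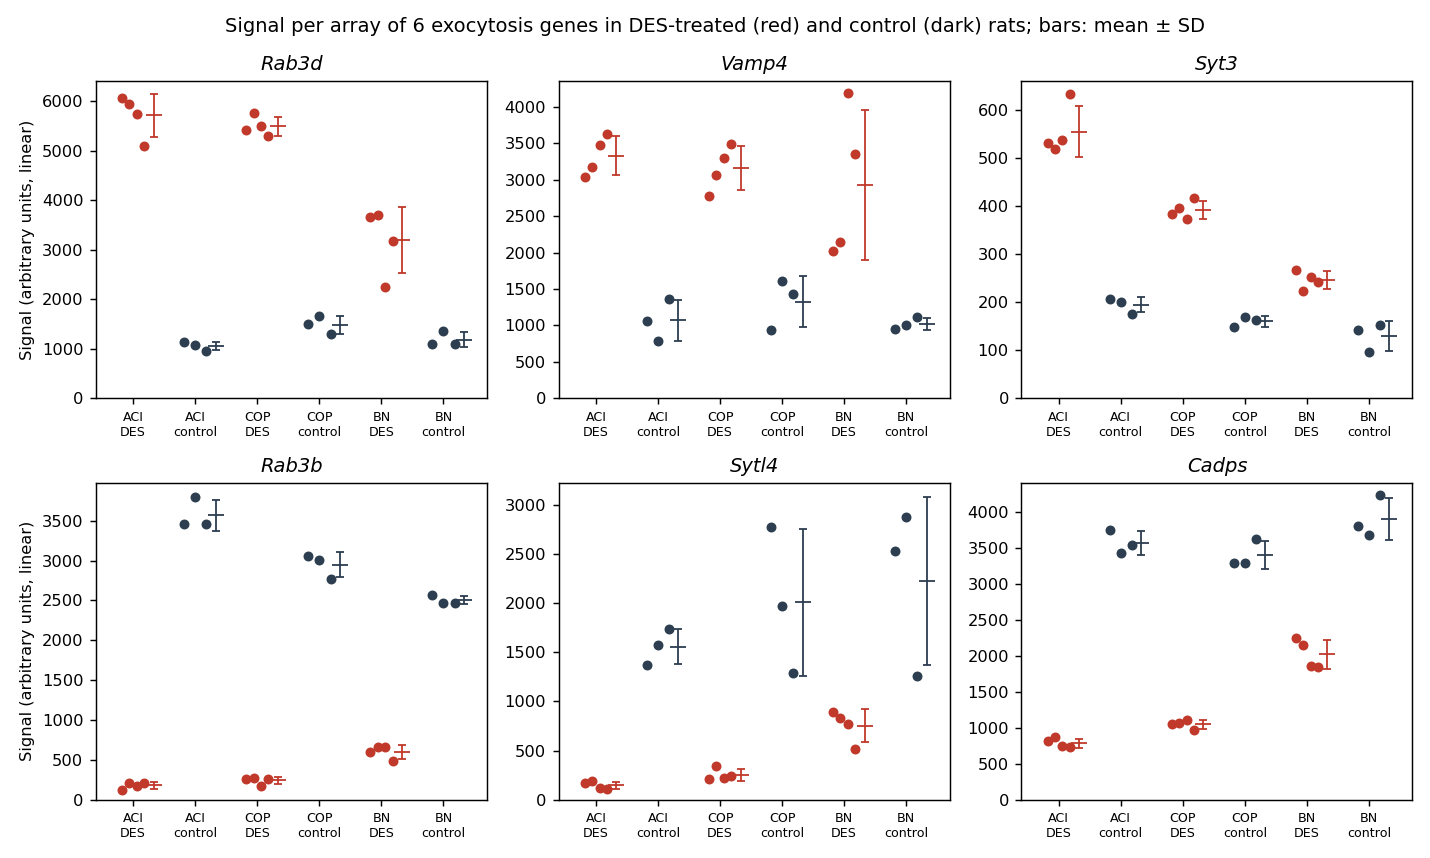
Signal (arbitrary units, linear axis from 0) of Rab3d, Vamp4, Syt3, Rab3b, Sytl4 and Cadps on each array, with the mean and SD of each group beside its points, DES-treated rats in red and controls in dark. The 3 genes of the upper row lie higher in DES-treated rats of every strain and the 3 of the lower row lie lower, with the BN groups closest together for Rab3d, Syt3, Rab3b and Cadps.

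Markers of pituitary cell types moved with these genes. Of 6 gonadotroph genes, 5 were called lower in ACI and COP and 4 in BN, with median log2 changes of -3.47, -2.64 and -1.60. The exception was Cga, the shared subunit of several pituitary hormones, which was called higher in BN at 0.74 and was not called in ACI or COP. Lhb, which encodes a gonadotropin subunit, averaged 229.9 units in DES-treated ACI rats and 16640 in ACI controls, 356.1 in DES-treated COP rats and 17300 in COP controls, and 1137 in DES-treated BN rats and 14080 in BN controls. No gonadotroph marker was at 0, the lowest group mean being 91.9 units for Gata2 in DES-treated ACI rats. The summed signal of the 5 gonadotroph genes other than Cga ran from 785.3 to 972.4 in DES-treated ACI rats and from 27590 to 34740 in ACI controls, from 1458 to 1465 in DES-treated COP rats and from 31490 to 35150 in COP controls, and from 2205 to 2678 in DES-treated BN rats and from 22740 to 30630 in BN controls. With Cga, which made up most of it after DES, the sum ran from 28090 to 31000 in DES-treated ACI rats and from 49320 to 71130 in ACI controls, and the BN ranges overlapped. Of 6 folliculostellate genes, 5 were called lower in ACI and COP and 4 in BN, while Cst3 was called higher in COP at 0.65 and in BN at 0.81. The 5 tested genes of neural lobe and nerve, where many exocytosis genes are also used, were called lower in 3, 3 and 2 cases, and Oxt was near the floor in 5 of the 6 groups. Of 7 leukocyte and macrophage genes, 6 were called higher for ACI, 7 for COP and 4 for BN, where Cd74 was called lower at -0.73, and their summed signal ran from 13690 to 16900 in DES-treated ACI rats and from 5501 to 5782 in ACI controls, from 14700 to 19760 in DES-treated COP rats and from 4085 to 4743 in COP controls, and from 8506 to 14200 in DES-treated BN rats and from 8343 to 9920 in BN controls. Markers of other cell types moved in both directions. Tbx19 of corticotrophs fell at -3.01, -2.19 and -0.94 in ACI, COP and BN, Dlk1 of somatotrophs at -2.30, -1.62 and -0.78, and the fibroblast gene Dcn at -4.43, -4.22 and -1.41. From the same lists Pcsk2 was called higher in all 3 strains, at 0.91, 0.60 and 1.52. Gh1 was called higher in COP and BN, at 0.51 and 0.89, and Col1a2 in ACI and COP, at 1.66 and 0.82. Tshb of thyrotrophs was called lower in ACI and COP, at -2.11 and -1.65, and not in BN, at 0.15. Trhr, on the same list, was called higher in BN alone, at 1.36. The 5 lactotroph genes were called higher in 1, 2 and 2 cases and lower in 2, 2 and 2, and the 4 endothelial genes were called lower in 3 cases in ACI and 1 in COP and higher in 1 in BN. The part of these cell types in the changes of the exocytosis genes was not tested.

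Among the Syt and Doc2 genes, 6 of 17 were called higher and 5 lower for ACI, 5 and 5 for COP, and 4 and 2 for BN. Syt4, which is carried on dense-core granules and was among the brightest members, rose. Syt4 gave 9570.5, 10032, 10931 and 11305 units in DES-treated ACI rats against 6658, 6846 and 6932 in ACI controls, 9348, 9614, 10706 and 10028 in DES-treated COP rats against 5777, 5769.5 and 5694 in COP controls, and 8394, 8549.8, 9359 and 8626 in DES-treated BN rats against 6879, 6774 and 6926 in BN controls. The arrays did not overlap in any strain, with log2 changes of 0.61, 0.78 and 0.35 (adjusted p = 1.35e-06, 5.85e-08 and 0.00193). Its BN change was 0.00 after quantile normalization of the arrays (adjusted p = 0.996).

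Syt3, a sensor with high affinity for calcium, also rose. Syt3 gave 529.8, 517, 537 and 632 units in DES-treated ACI rats against 206, 200.4 and 176 in ACI controls, 383, 396, 372 and 415 in DES-treated COP rats against 147, 168 and 163 in COP controls, and 265, 223, 252 and 241 in DES-treated BN rats against 141, 94.7 and 153 in BN controls. All DES-treated rats exceeded all controls of their strain, and the changes were 1.44 ± 0.15 (log2, SE, adjusted p = 3.75e-08) for ACI, 1.22 ± 0.15 (log2, SE, adjusted p = 6.66e-07) for COP and 0.87 ± 0.15 (log2, SE, adjusted p = 8.78e-05) for BN. A second, dimmer probe set of Syt3 was called higher in every strain too. Syt9, a sensor found on dense-core vesicles, rose by 2.39-fold, 2.58-fold and 2.19-fold in ACI, COP and BN. Syt9 gave 499, 509.9, 372 and 325 units in DES-treated ACI rats against 164, 158 and 174 in ACI controls, 589, 573, 437 and 470 in DES-treated COP rats against 218, 197 and 154 in COP controls, and 671, 799, 287 and 337 in DES-treated BN rats against 245, 287 and 129 in BN controls. The BN groups touched, since DES replicate 3 equalled control replicate 2 at 287.3 units, and the BN call (adjusted p = 0.00387) was lost when only the BN arrays were fitted (adjusted p = 0.0535). Syt13 and Syt6 were called higher in ACI and COP only, Syt13 at 1.30 and 1.28 and Syt6 at 0.98 and 0.78. The COP call of Syt6 was lost under 9 of 33 alternatives, among them each fit that left out a COP array. Syt8 was called higher in ACI only, at 1.38, and had a group mean near the floor. With the array number as a replicate block the BN changes of Syt13 (0.57, adjusted p = 0.0362) and Syt6 (0.69, adjusted p = 0.0228) were called as well.

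Doc2g, which belongs to the Doc2 family of proteins with paired C2 domains, had the largest fitted fall in ACI. Doc2g signals were 14, 56.7, 5.4 and 47.9 units in DES-treated ACI rats, against 922, 853 and 678 units in ACI controls. They were 45, 87.7, 116 and 35.3 in DES-treated COP rats and 814, 1016 and 922 in COP controls. BN rats had 303, 255, 458 and 431 with DES, and 785, 918 and 1137 as controls. The mean after DES was near the floor in ACI, so that the 20-fold difference there (log2 change -4.32 ± 0.35 SE, adjusted p = 1.11e-09) has an uncertain size. The differences were 11.5-fold in COP (log2 change -3.52 ± 0.35 SE, adjusted p = 4.17e-08) and 2.58-fold in BN (log2 change -1.37 ± 0.35 SE, adjusted p = 0.00441), and the groups were separate in every strain. Syt12 was called lower in all 3 strains as well, and every DES mean was near the floor. Syt12 gave 2.3, 42.6, 21.9 and 64.3 units in DES-treated ACI rats against 117, 85.3 and 141 in ACI controls, 16.8, 7, 30.2 and 30.9 in DES-treated COP rats against 95.9, 69.7 and 119.8 in COP controls, and 44.6, 9.6, 55 and 73 in DES-treated BN rats against 155, 109.8 and 184 in BN controls. No DES-treated rat reached the controls of its strain, and the changes were -1.59, -1.61 and -1.54 (adjusted p = 0.00538, 0.00594 and 0.011), of which the BN call was lost when 1 in place of 16 was added (adjusted p = 0.0622). Syt1, the main trigger of fast release in neurons, Syt16 and Doc2b were called lower in ACI and COP and not in BN, with Syt1 at -1.01 and -0.91. Syt5, Syt7, Syt10, Syt11 and Syt15 were called nowhere.

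The priming factor Cadps, also known as CAPS and required in endocrine cells for granules to become ready for release, fell in all 3 strains. Cadps signals were 811, 865, 743 and 727 units in DES-treated ACI rats, against 3752, 3429 and 3533 units in ACI controls. In COP they were 1050.1, 1070.3, 1107 and 962 with DES, against 3294, 3288 and 3618 in controls. In DES-treated BN rats the values were 2241, 2146, 1860.3 and 1845, against 3805, 3678 and 4229 in BN controls. The groups were far apart relative to their spread, with changes of -2.16 ± 0.10 (log2, SE, adjusted p = 8.36e-14) for ACI, -1.68 ± 0.10 (log2, SE, adjusted p = 6.51e-12) for COP and -0.95 ± 0.10 (log2, SE, adjusted p = 1.29e-07) for BN. Its relative Cadps2 changed little. Cadps2 gave 453, 535, 422 and 498 units in DES-treated ACI rats against 565, 529 and 555 in ACI controls, 516, 666, 476 and 580.4 in DES-treated COP rats against 796, 648 and 799.5 in COP controls, and 819, 877, 722 and 704 in DES-treated BN rats against 1119.9, 1022 and 1019 in BN controls. It was called lower in COP (log2 change -0.41 ± 0.13 SE, adjusted p = 0.0113) and BN (log2 change -0.43 ± 0.13 SE, adjusted p = 0.0115) and not in ACI (log2 change -0.20 ± 0.13 SE, adjusted p = 0.196), and both calls were lost with median centring and with quantile normalization.

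The tested complexins were dim and fell in ACI and COP. Cplx2, which clamps assembled SNAREs, averaged 61.1 ± 7.9 units (SD, n = 4) in ACI rats given DES and 323 ± 56.4 units (SD, n = 3) in ACI controls (log2 change -2.13 ± 0.49 SE, adjusted p = 0.000999), and was also called lower in COP (log2 change -1.43 ± 0.49 SE, adjusted p = 0.0223) and not in BN (log2 change -1.20 ± 0.49 SE, adjusted p = 0.0638). Cplx1 was called lower by 0.81 in ACI and 0.90 in COP, and its BN change was 0.20 (adjusted p = 0.553). Rims1 and Rims2, scaffolds of release sites, moved apart in ACI, where Rims1 was called higher (log2 change 1.04 ± 0.28 SE, adjusted p = 0.00326) and Rims2 lower (log2 change -0.71 ± 0.23 SE, adjusted p = 0.0135). The control mean of Rims1 was near the floor, and the Rims2 call was lost with median centring, with quantile normalization and without ACI control replicate 1. Of the Unc13 genes, which open syntaxin for fusion, Unc13a and Unc13b were called nowhere and Unc13c was called lower in ACI and COP.

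The core SNAREs Snap25, Stx1a and Vamp2 were called lower in ACI and COP, but several of these calls depended on the processing. For Snap25, the brightest of them, no fall was measured in BN. Snap25 signals were 7078, 8212, 6662 and 7133 units in DES-treated ACI rats, against 8835, 9660.1 and 12546 units in ACI controls. They were 7844, 8418, 9099.8 and 6892 in DES-treated COP rats and 9710, 9449 and 10303 in COP controls. BN rats had 10444, 10340.5, 9147 and 10200.3 with DES, and 8076, 8832 and 9107 as controls. DES-treated rats lay below controls in ACI and COP and above them in BN, without overlap in each case. The change was -0.50 ± 0.11 (log2, SE, adjusted p = 0.00101) for ACI, -0.29 ± 0.11 (log2, SE, adjusted p = 0.0449) for COP and 0.21 ± 0.11 (log2, SE, adjusted p = 0.169) for BN. Median centring took both calls away and made the BN rise a call, whereas quantile normalization kept both, and the COP call was lost under 15 of 33 alternatives.

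Snap23, the relative of Snap25 in most other cell types, rose in all 3 strains. Snap23 gave 2338, 2308, 2225 and 2396 units in DES-treated ACI rats against 1136, 1106 and 1515 in ACI controls, 2060.1, 1886, 2017 and 2000.1 in DES-treated COP rats against 1086, 910.5 and 1001 in COP controls, and 1456, 1526, 1535 and 1793 in DES-treated BN rats against 894, 1002 and 854 in BN controls. No array overlapped, with changes of 0.89, 0.99 and 0.77 (adjusted p = 5.53e-07, 1.93e-07 and 1.08e-05), and a second probe set of Snap23 was called higher in each strain, at 1.32, 1.15 and 1.13. The opposite directions of Snap25 and Snap23 were called in ACI and COP. Stx1a, the syntaxin that pairs with Snap25, was dim. Stx1a gave 112, 98.2, 90.6 and 120.1 units in DES-treated ACI rats against 191, 217 and 203 in ACI controls, 54.8, 82.5, 15.6 and 154 in DES-treated COP rats against 250, 209.7 and 163 in COP controls, and 294, 157, 176 and 187 in DES-treated BN rats against 285, 239.7 and 228 in BN controls. It was called lower in ACI (log2 change -0.86 ± 0.35 SE, adjusted p = 0.0454) and COP (log2 change -1.49 ± 0.35 SE, adjusted p = 0.00142) and not in BN (log2 change -0.31 ± 0.35 SE, adjusted p = 0.529), the ACI call was lost under 18 of 32 alternatives, and a second probe set was called in no strain.

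Vamp2, the vesicle SNARE of regulated release, fell. Vamp2 gave 1262, 1278, 1121 and 1036 units in DES-treated ACI rats against 2311, 2411 and 1592 in ACI controls, 1344, 1460, 1053 and 987 in DES-treated COP rats against 1469, 1849.9 and 1724 in COP controls, and 1778, 1237, 1199.6 and 1161 in DES-treated BN rats against 1888, 1913 and 1806 in BN controls. The groups were separate, and the changes were -0.81 ± 0.16 (log2, SE, adjusted p = 0.000256) for ACI, -0.48 ± 0.16 (log2, SE, adjusted p = 0.0213) for COP and -0.49 ± 0.16 (log2, SE, adjusted p = 0.0237) for BN. The COP and BN calls were lost with median centring, at -0.29 (adjusted p = 0.108) and -0.33 (adjusted p = 0.0888), and in all under 6 of 33 alternatives for COP and 7 of 33 for BN. Of the 7 tested vesicle SNAREs, 4 were called lower for ACI, 2 for COP and 1 for BN, and the only one called higher was Vamp4, which acts at the trans-Golgi network and on maturing granules and rose in all 3 strains. Vamp4 gave 3038, 3176, 3485 and 3627 units in DES-treated ACI rats against 1056, 786 and 1359 in ACI controls, 2781, 3069.8, 3306 and 3490.5 in DES-treated COP rats against 934, 1612 and 1424 in COP controls, and 2016, 2148, 4188 and 3349 in DES-treated BN rats against 949.7, 1006 and 1108 in BN controls. The groups did not overlap, the changes were 1.66 ± 0.21 (log2, SE, adjusted p = 1.17e-06) for ACI, 1.28 ± 0.21 (log2, SE, adjusted p = 4.76e-05) for COP and 1.44 ± 0.21 (log2, SE, adjusted p = 1.98e-05) for BN, and a second probe set was called higher in each strain at 1.25, 1.08 and 1.16. Vamp3, Vamp5 and Vamp7 were called lower in ACI, at -0.22, -0.62 and -0.49, and Vamp7 also in COP and, with the replicate block, in BN at -0.45 (adjusted p = 0.0338). The ACI calls of Vamp3, Vamp5 and Vamp7 were lost under 5, 5 and 8 of 33 alternatives. Median centring was among these for each gene, and it also ended the COP call of Vamp7.

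The syntaxins of internal membranes also moved in both directions. Stx5, the syntaxin of traffic between the endoplasmic reticulum and the Golgi, rose. Stx5 gave 2054, 1882, 1961 and 2119 units in DES-treated ACI rats against 1012, 1045 and 1160.2 in ACI controls, 2029, 1717, 1761 and 1708 in DES-treated COP rats against 1086, 1209 and 1062 in COP controls, and 1691, 1402, 1581 and 1738 in DES-treated BN rats against 1262, 1011 and 973 in BN controls. DES-treated rats exceeded controls in every strain, by 0.89, 0.68 and 0.56 on the log2 scale (adjusted p = 4.41e-07, 2.42e-05 and 0.000317). Stx6, Stx7 and Stx8, which act at the trans-Golgi network and on endosomes, were called lower in all 3 strains, with changes between -0.76 and -0.28, although the BN call of Stx6 was lost under 10 of 33 alternatives, with median centring and quantile normalization among them. Stx3 and Stx4 were called lower in BN alone, at -0.70 and -0.36. Without a call, Stx3 was lower by 1.26-fold in ACI (adjusted p = 0.0726) and 1.28-fold in COP (adjusted p = 0.0539). Stx4 was lower by 1.16-fold in ACI (adjusted p = 0.0887) and 1.14-fold in COP (adjusted p = 0.14). The response to DES was not called different between strains for either gene.

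Of the proteins that bind syntaxins, Stxbp6, or amisyn, fell furthest. Stxbp6 gave 320.1, 368, 292 and 382 units in DES-treated ACI rats against 984, 889.5 and 1416 in ACI controls, 316, 300.4, 317 and 326 in DES-treated COP rats against 664, 797 and 709.8 in COP controls, and 450.5, 458, 682 and 625 in DES-treated BN rats against 991, 696 and 999 in BN controls. The groups were separate in each strain and the changes were -1.62 ± 0.17 (log2, SE, adjusted p = 6.57e-08) for ACI, -1.16 ± 0.17 (log2, SE, adjusted p = 1.07e-05) for COP and -0.68 ± 0.17 (log2, SE, adjusted p = 0.00382) for BN, although a second, dimmer probe set was called in none. Stxbp3 was called lower in all 3 strains by 0.55, 0.57 and 0.48. Stxbp5, or tomosyn, was called lower in COP and BN, and Stxbp2 nowhere.

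The ATPase Nsf was the only member called in opposite directions, and its BN value rested on which arrays were read. Nsf signals were 2425, 2395, 2256 and 1924 units in DES-treated ACI rats, against 1319, 1454 and 679.9 units in ACI controls. In COP they were 2171, 2126, 1794 and 1476 with DES, against 1474, 988 and 1163 in controls. In DES-treated BN rats the values were 1883, 2054, 533 and 759, against 2207, 2239 and 1993 in BN controls. The ACI rise was 1.02 ± 0.33 (log2, SE, adjusted p = 0.0132), the COP change 0.64 ± 0.33 (log2, SE, adjusted p = 0.124) and the BN change -0.93 ± 0.33 (log2, SE, adjusted p = 0.0344). In BN, DES replicates 3 and 4 read far below DES replicates 1 and 2, which lay close to the controls. Within arrays numbered 1 and 2 the BN change was -0.18 (adjusted p = 0.353), and within those numbered 3 and 4 it was -1.62 (adjusted p = 0.000312), where BN has 1 control array that is assumed to vary like the other groups. The ACI change was 0.79 (adjusted p = 0.00012) in the set numbered 1 and 2 and 1.59 (adjusted p = 0.000194) in the other set, likewise against 1 control array. Both other tested Nsf probe sets were called higher in ACI, at 1.43 (adjusted p = 0.0135) and 1.29 (adjusted p = 0.00323), and neither was called in BN. The ACI call was lost without ACI control replicate 3, at 0.69 (adjusted p = 0.116), and the BN call without any single BN array other than DES replicates 1 and 2.

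**Figure D3:**
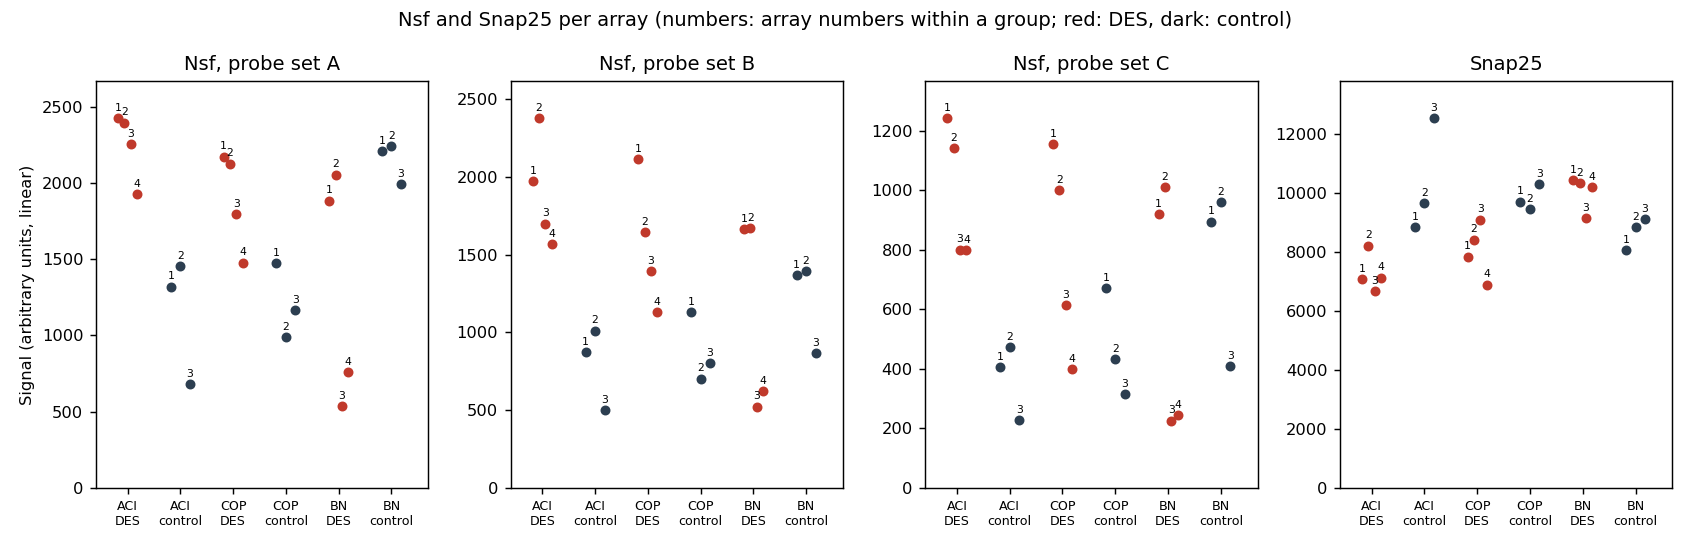
Signal (arbitrary units, linear axis from 0) of the 3 tested Nsf probe sets, A being the brightest and the one described, and of Snap25 on each array, with the array's number within its group above each point (DES red, control dark). In BN, DES arrays 3 and 4 lie below DES arrays 1 and 2 for all 3 Nsf probe sets. For Snap25 the BN DES arrays lie above the BN controls, with the lowest DES array close to the highest control.

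The Rab30 to Rab39 genes, which the rule took in only by the prefix of their symbols, held some of the widest changes. Rab34, a GTPase known for lysosome positioning and cilia, rose by 3.32-fold, 3.03-fold and 2.11-fold. Rab34 gave 3113, 2907, 2889 and 3394 units in DES-treated ACI rats against 912, 942 and 886 in ACI controls, 2199.8, 2620.5, 2381 and 3130.4 in DES-treated COP rats against 711, 939.6 and 871 in COP controls, and 1204, 1192, 1929.9 and 1628 in DES-treated BN rats against 764, 629.7 and 659 in BN controls. Rab38, a GTPase of lysosome-related organelles such as melanosomes, fell by 8.06-fold, 6.59-fold and 5.03-fold (adjusted p = 2.92e-10, 2.57e-09 and 5.56e-08). Rab38 gave 91.8, 98.8, 66.8 and 84.1 units in DES-treated ACI rats against 798, 666 and 952 in ACI controls, 139, 142, 75.2 and 86.3 in DES-treated COP rats against 764, 1083 and 597 in COP controls, and 183, 205, 295 and 238 in DES-treated BN rats against 1379.7, 966 and 1306 in BN controls. Rab36 fell too. Rab36 gave 124, 75.1, 58.3 and 78.6 units in DES-treated ACI rats against 655, 390.2 and 274 in ACI controls, 121, 196, 145 and 99.5 in DES-treated COP rats against 521, 427 and 409 in COP controls, and 352, 353, 163 and 312 in DES-treated BN rats against 542, 556 and 534 in BN controls. The groups of all 3 genes were separate in every strain, with Rab36 at -2.14, -1.61 and -0.90 (adjusted p = 1.33e-06, 6.94e-05 and 0.0156), and the BN call of Rab36 was lost without BN DES replicate 3 at -0.66 (adjusted p = 0.0625). Rab31 was called higher in ACI and COP, at 0.65 and 0.62, Rab32 in ACI alone, Rab30 in COP alone and Rab33b in BN alone, of which the Rab30 call was lost under 8 of 33 alternatives and the Rab33b call under 18 of 33.

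Another probe set could be set beside 51 of the called changes, from the 23 genes that had several tested probe sets. The other probe set had the same sign in 43 pairs, was called in the same direction in 22 and was called in the opposite direction in 0.

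The start regions of genes that moved most were read from the RefSeq promoter table of the rat (build GRCr8), which gives 300 bases per entry, 250 before and 50 after the start of transcription. The array files name no build, and genes were matched to the table by gene ID. Because DES is an estrogen, the windows were searched on both strands for the half-site of the estrogen response element (GGTCA or its reverse TGACC), for its palindrome GGTCANNNTGACC, which holds a half-site on each strand, and for the cyclic AMP response element TGACGTCA, which shares no whole half-site. The 7 windows below belong to Rab3d and Rab34, among the largest risers, to Syt3, the only one of the 9 risers of all 3 strains with a half-site, and to Rab3b, Sytl4, Doc2g and Cadps, among the largest fallers with an entry, with every half-site in capitals.
Rab3d: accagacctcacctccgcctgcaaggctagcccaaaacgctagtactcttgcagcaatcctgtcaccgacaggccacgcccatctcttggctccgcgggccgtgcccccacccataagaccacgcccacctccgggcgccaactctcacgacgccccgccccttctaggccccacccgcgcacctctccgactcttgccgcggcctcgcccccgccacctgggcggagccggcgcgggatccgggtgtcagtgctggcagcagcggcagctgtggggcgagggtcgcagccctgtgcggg
Rab34: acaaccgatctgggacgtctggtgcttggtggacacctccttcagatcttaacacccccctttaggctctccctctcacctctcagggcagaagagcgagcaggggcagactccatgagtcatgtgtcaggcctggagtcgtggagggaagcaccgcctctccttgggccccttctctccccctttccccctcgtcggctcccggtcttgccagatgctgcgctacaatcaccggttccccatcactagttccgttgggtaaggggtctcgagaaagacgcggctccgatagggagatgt
Syt3: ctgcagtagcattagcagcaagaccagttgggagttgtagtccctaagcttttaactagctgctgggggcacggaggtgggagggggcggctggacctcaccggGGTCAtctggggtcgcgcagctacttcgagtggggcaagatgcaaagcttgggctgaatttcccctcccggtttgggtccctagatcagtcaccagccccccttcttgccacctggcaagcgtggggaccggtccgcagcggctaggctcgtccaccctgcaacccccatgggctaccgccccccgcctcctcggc
Rab3b: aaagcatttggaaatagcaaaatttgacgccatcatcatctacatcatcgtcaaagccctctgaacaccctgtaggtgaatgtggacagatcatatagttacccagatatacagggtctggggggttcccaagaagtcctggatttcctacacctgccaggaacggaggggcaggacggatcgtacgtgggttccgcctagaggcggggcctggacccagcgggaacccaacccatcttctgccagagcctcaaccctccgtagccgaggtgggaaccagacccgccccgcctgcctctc
Sytl4: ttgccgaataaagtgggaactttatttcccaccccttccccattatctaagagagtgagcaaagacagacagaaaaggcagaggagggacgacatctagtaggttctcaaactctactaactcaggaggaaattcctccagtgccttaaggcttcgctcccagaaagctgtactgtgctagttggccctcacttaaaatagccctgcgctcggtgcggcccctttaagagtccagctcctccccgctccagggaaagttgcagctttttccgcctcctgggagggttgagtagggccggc
Doc2g: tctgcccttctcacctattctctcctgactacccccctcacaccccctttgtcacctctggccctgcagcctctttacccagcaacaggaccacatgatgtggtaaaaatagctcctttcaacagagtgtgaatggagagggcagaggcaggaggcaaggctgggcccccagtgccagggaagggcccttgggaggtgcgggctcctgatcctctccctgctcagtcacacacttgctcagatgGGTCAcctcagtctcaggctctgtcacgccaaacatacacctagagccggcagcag
Cadps: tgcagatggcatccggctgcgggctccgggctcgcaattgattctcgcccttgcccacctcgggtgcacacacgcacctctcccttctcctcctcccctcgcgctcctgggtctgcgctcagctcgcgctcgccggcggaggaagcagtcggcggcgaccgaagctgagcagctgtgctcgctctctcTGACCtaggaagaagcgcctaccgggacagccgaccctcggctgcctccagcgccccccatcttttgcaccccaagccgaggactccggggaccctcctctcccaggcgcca
Rab3d lies on chr8:28725218-28725517 (minus strand), Rab34 on chr10:63581292-63581591 (plus strand), Syt3 on chr1:104017874-104018173 (plus strand), Rab3b on chr5:128858841-128859140 (plus strand), Sytl4 on chrX:101479102-101479401 (minus strand), Doc2g on chr1:210725578-210725877 (plus strand) and Cadps on chr15:14720476-14720775 (plus strand). The windows of Syt3, Doc2g and Cadps each held 1 half-site, which began at base 105, 245 and 189 of the window, and those of Rab3d, Rab34, Rab3b and Sytl4 held none. Over the genes called higher in all 3 strains, 1 of 9 (11.1%) had an entry with a half-site, against 6 of 11 (54.5%) among those called lower in all 3 that had an entry and 20 of 40 (50%) among the other tested members. Over all 27457 genes of the table the share was 42.2%. No window of these groups held the palindrome, which 0.0255% of all genes had, and the cyclic AMP element was found in 2 of the 40 other members, Napa and Vamp1, and in 2% of all genes. Rab36, Rab38 and Syt12 had no entry. A match of letters is a description and not a binding site.

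The response to DES differed between strains for 13 of 75 genes by an F test of the interaction, with 14.8% of all genes so called. Within arrays numbered 1 and 2 the difference was called for 21 genes, and the share of all genes in that fit was not computed. Among the 14 genes called lower in all 3 strains, the change was smallest in BN for 12 and largest in ACI for 10. Among the 9 called higher in all 3, it was smallest in BN for 8 and largest in ACI for 5. Over all genes called lower in all 3 strains the change was smallest in BN for 62.7% and largest in ACI for 61.6%, and over all genes called higher the shares were 63.6% and 59.3%. The order among the members is a description, and the difference itself was called for 5 of the 14 and 2 of the 9. The matching shares over all genes called lower or higher in all 3 strains were not computed.

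**Figure D4:**
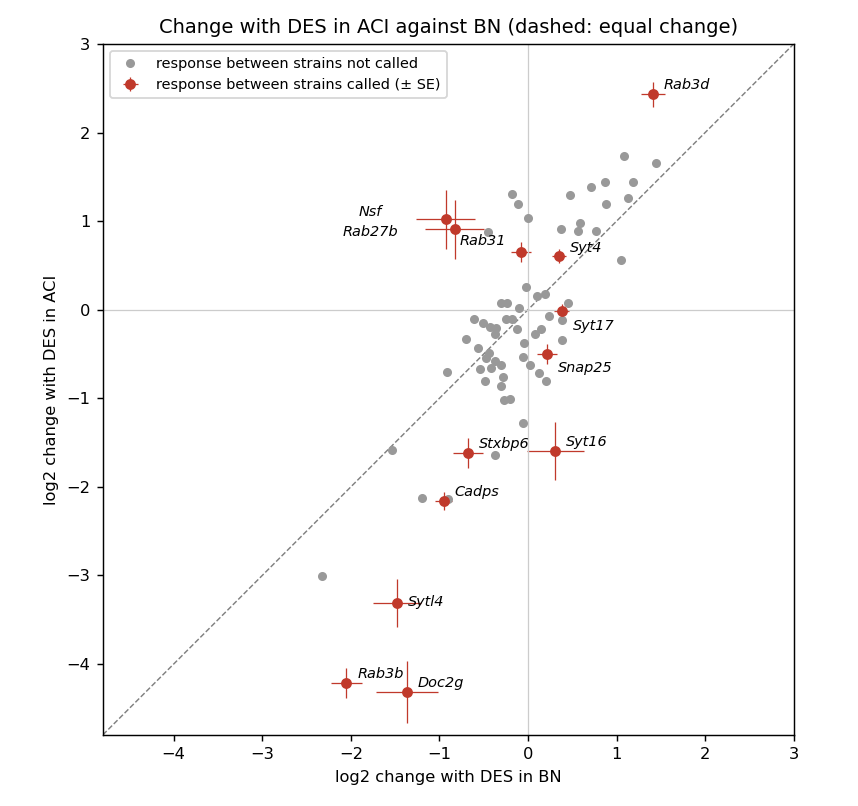
The log2 change with DES in ACI (vertical axis) against that in BN (horizontal axis) of the 75 tested genes, with the 13 genes whose response differed between strains in red with their standard errors. The dashed line marks equal changes. Rab3b, Doc2g, Sytl4 and Cadps lie far below it and Rab3d above it, and Nsf, Rab27b and Syt16 are among those with changes of opposite sign.

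Rab3b fell further in ACI than in BN, with an ACI minus BN difference in log2 change of -2.18 ± 0.24 (log2, SE, adjusted p = 3.18e-06), and further in COP than in BN, with a COP minus BN difference of -1.49 ± 0.24 (log2, SE, adjusted p = 0.000517). Cadps gave an ACI minus BN difference of -1.22 ± 0.14 (log2, SE, adjusted p = 3.81e-06) and a COP minus BN difference of -0.74 ± 0.14 (log2, SE, adjusted p = 0.0021). Doc2g and Sytl4 also fell further in ACI than in BN, with an ACI minus BN difference of -2.94 ± 0.50 (log2, SE, adjusted p = 0.000366) for Doc2g and -1.83 ± 0.38 (log2, SE, adjusted p = 0.0023) for Sytl4. Their COP minus BN differences were called too, but the call was lost under 2 of 32 alternatives for Doc2g and 11 of 32 for Sytl4. For Rab3d the rise was larger in ACI than in BN by 1.02 ± 0.20 (log2, SE, adjusted p = 0.00115), and neither its ACI minus COP nor its COP minus BN difference was called.

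The response of ACI and COP was not called different for any of these 5 genes, and the ACI minus COP difference was -0.68 ± 0.24 (log2, SE, adjusted p = 0.273) for Rab3b and -0.48 ± 0.14 (log2, SE, adjusted p = 0.139) for Cadps. Syt16, a synaptotagmin relative, fell in ACI and COP and averaged 147 ± 42.2 units (SD, n = 4) in DES-treated BN rats and 115 ± 31.2 units (SD, n = 3) in BN controls, with an ACI minus BN difference of -1.91 ± 0.46 (log2, SE, adjusted p = 0.00719), although its DES means in ACI and COP were near the floor. Snap25 differed between ACI and BN by -0.71 ± 0.16 (log2, SE, adjusted p = 0.00481), Nsf by 1.95 ± 0.47 (log2, SE, adjusted p = 0.00665) and Rab27b by 1.74 ± 0.47 (log2, SE, adjusted p = 0.0154). Rab31 rose in ACI and COP and not in BN, with an ACI minus BN difference of 0.72 ± 0.16 (log2, SE, adjusted p = 0.0046) and a COP minus BN difference of 0.70 ± 0.16 (log2, SE, adjusted p = 0.0138), and the leukocyte genes, whose sums are given above, were also called in fewer cases in BN. The part of leukocytes in the Rab31 change was not tested. Stxbp6, Syt4 and Syt17 completed the 13 genes.

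In control rats, 4 of 75 genes differed between strains, beside 8.37% of all genes. The count was 18 within arrays numbered 1 and 2, where the share of all genes was not computed. Cadps2 was higher in BN than in ACI, with an ACI minus BN difference of -0.92 ± 0.14 (log2, SE, adjusted p = 0.000104) and a COP minus BN difference of -0.49 ± 0.14 (log2, SE, adjusted p = 0.032). The COP minus BN call was lost under 6 of 33 alternatives, among them each fit without 1 BN control. Syt17 was lower in BN controls. Syt17 gave 2955, 2840, 2612 and 2668 units in DES-treated ACI rats against 2913, 2693 and 2812 in ACI controls, 2998, 2785, 2846 and 2908 in DES-treated COP rats against 2971, 3071 and 3013 in COP controls, and 3189, 2871, 2645 and 2755 in DES-treated BN rats against 2145, 2266 and 2176 in BN controls. Its ACI minus BN and COP minus BN differences were 0.35 ± 0.09 (log2, SE, adjusted p = 0.0152) and 0.46 ± 0.09 (log2, SE, adjusted p = 0.002), a change with DES was called in BN only (log2 change 0.38 ± 0.08 SE, adjusted p = 0.0011), and no strain difference was called after DES (adjusted p of the F test = 0.805). The ACI minus BN call of Syt17 in controls was lost under 4 of 33 alternatives. A second probe set of Syt17 behaved otherwise and was called higher with DES in ACI alone.

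Unc13c ran the other way and was highest in ACI controls. Unc13c gave 119, 176, 170.1 and 113 units in DES-treated ACI rats against 407, 332 and 367 in ACI controls, 154, 73.4, 47.4 and 93.3 in DES-treated COP rats against 124, 183 and 286 in COP controls, and 113, 127, 145 and 110.3 in DES-treated BN rats against 131, 119 and 139 in BN controls. Its ACI minus BN difference was 1.40 ± 0.29 (log2, SE, adjusted p = 0.00368), while after DES the ACI and BN rats were close and no strain difference was called (adjusted p of the F test = 0.129). Vamp1 was higher in BN than in COP controls, with a COP minus BN difference of -0.86 ± 0.22 (log2, SE, adjusted p = 0.0174). That call was lost under 5 of 33 alternatives. Vamp1 gave 176, 188, 194 and 224 units in DES-treated ACI rats against 184, 173 and 166 in ACI controls, 201, 174, 115 and 198 in DES-treated COP rats against 197, 147 and 103 in COP controls, and 366, 314, 278 and 238 in DES-treated BN rats against 286, 284 and 258 in BN controls. It was called with DES in no strain, and a difference between strains was called after DES as well (adjusted p of the F test = 0.00789).

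After DES, 35 of 75 genes differed between strains, beside 35.5% of all genes. The smallest adjusted p values of the F test were 6.51e-10 for Cadps, 9.61e-08 for Rab3b, 4.75e-07 for Doc2g and 1.25e-06 for Sytl4, none of which was called different between strains in controls (adjusted p between 0.218 and 0.95). Each of the 4 was lowest in DES-treated ACI rats and highest in DES-treated BN rats, at 787 ± 63.9 units (SD, n = 4), 1048 ± 61.5 units (SD, n = 4) and 2023 ± 201 units (SD, n = 4) for Cadps in ACI, COP and BN.

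A list of 59 other genes of vesicle traffic gave a wider view, and 50 of them were tested. In ACI 16 were called higher and 12 lower, in COP 15 and 15, and in BN 13 and 10, with the shares of all genes as above. Some SNAREs of the early secretory pathway, named here after their values were seen, were called higher in all 3 strains, with Bet1 at 1.46, 1.22 and 1.31, Ykt6 at 1.84, 1.36 and 1.43, Gosr2 at 0.87, 0.53 and 0.46, and Use1 at 0.89, 0.74 and 0.80 in ACI, COP and BN. Others of that pathway differed, since Bnip1 was called higher in ACI alone at 0.35, Gosr1 was called lower in COP at -0.29 and Sec22b was called in none. Scfd1, which binds Stx5, was also called higher in each strain, at 0.81, 0.50 and 0.28. Ptprn, a protein of the granule membrane, averaged 13110 units in DES-treated ACI rats and 4672 in ACI controls. It was called higher in each strain, at 1.49, 1.36 and 0.57 in ACI, COP and BN. Its response to DES differed between strains (adjusted p of the F test = 0.000832), and Ptprn2 was called in no strain. Of the effectors of Rab27 and Rab3 on the list, 3 were called lower in all 3 strains, with Rph3al (also named Noc2) at -1.86, -1.62 and -1.39, Exph5 at -1.22, -1.41 and -1.50 and Myrip at -1.10, -1.04 and -0.64, while Mlph was called in none. Bsn, a scaffold of release sites, was called lower in ACI and COP, and the vesicle protein Syp was called in no strain.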

How the data were processed

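Anterior pituitary RNA of 21 rats was hybridised to 1-colour Affymetrix Rat Genome 230 2.0 arrays. The authors deposited 1 table of probe-set intensity values on a linear scale, and for the software that summarised the probes the name is not given in the sources used here. Array trimmed means lay close to 500, so the deposited intensities were taken as already scaled and were not normalized again. After 57 control probe sets were left out, 31042 remained, of which 20826 had 1 gene symbol, 436 several and 9780 none in the platform annotation. Genes were named only from probe sets with 1 symbol.

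Signals were transformed as log2(signal + 16). Probe sets were tested if they exceeded the array's 40th percentile on at least 3 arrays, which kept 21858 probe sets and 11750 genes. Each gene was represented by its probe set with the highest mean signal. A linear model over the 6 groups was fitted with limma 3.58.1 in R 4.3.3 (lmFit, then eBayes with a variance trend), giving DES minus control in each strain, differences between strains in controls and after DES, and differences in response, with Benjamini-Hochberg adjustment over all probe sets tested and calls at 0.05. The fit was checked on simulated data. Differences were also examined by the exact permutation test, for which 35 splits of 4 against 3 allow a smallest p of 0.0286. The paper on these data describes the ACI and BN arrays as made from glands of single rats, and it does not cover COP. The sample notes, as said above, speak of fewer independent replicates than arrays. Where arrays did not come from separate animals, p-values measure only the spread between arrays. The number of arrays limits the precision.

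The text names the core genes Snap25, Stx1a, Vamp2, Nsf, Cadps and Cadps2, the 8 members with the largest rise and the 8 with the largest fall among those called in all 3 strains, and the 4 with the smallest F test p-values in controls, after DES and in response. Other members are given for completeness of their families and were chosen after their values were seen. The members were taken by name and not by expression, although the rule and the gene lists were set with earlier results of these data known. Alternatives covered the filter, the number added before log2, the scaling, the variance model, the arrays fitted, blocks and each left-out array. The labels do not say that equal array numbers pair rats. Deviations from the group means of DES and control arrays with the same number correlated at 0.138, 0.196 and 0.238 in BN, at 0.164, 0.084 and 0.143 in COP and at 0.091, 0.083 and 0.08 in ACI, so that only BN passed 0.1 for every pair, and the value with the number as a block is given where it changes a BN call.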

Additional observations from a re-analysis of the deposited data

Results flagged for a closer look

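In 72 groups of 4 DES-treated rats (24 named genes in 3 strains), 2 held an array far from the other 3 by Dixon's criterion, which chance gives in about 1 in 20 groups. For Rab36, BN DES replicate 3 read 163.3 units, against 312.3 to 353.2 in the other DES-treated BN rats. For Vamp2, BN DES replicate 1 read 1778.3 units, against 1161.2 to 1236.8 in the others.

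The response to DES differed between the strains for 13 genes by the F test of the interaction in limma. The adjusted p was 8.8e-06 for Rab3b, 1.28e-05 for Cadps, 0.000953 for Doc2g, 0.00398 for Rab3d, 0.00556 for Sytl4, 0.00572 for Rab31, 0.006 for Syt16, 0.0129 for Snap25, 0.0143 for Nsf, 0.0208 for Syt17, 0.0338 for Rab27b, 0.034 for Syt4 and 0.0357 for Stxbp6. The share of all genes with such a difference was 14.8%.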

How the results depend on the processing

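Counts of called members moved by over 1.5 times under few alternatives. With median centring, 11 members were called lower in BN in place of 21, and the share called higher was 50% for ACI, 40.5% for COP and 57.7% for BN, in place of 39.1%, 31% and 34.4%. Strain differences in controls, called for 4 members, were called for 7 with quantile normalization, 8 with the replicate block, 10 with the set of array numbers as a block, 18 within arrays 1 and 2 and 1 within arrays 3 and 4, where each strain has 1 control array whose spread is taken from the other groups. Response differences, called for 13, were called for 21 within arrays 1 and 2. The shares of all genes called under these alternatives were not computed. Within arrays 3 and 4, 17 members were called lower in COP in place of 29, and 9 were called lower in all 3 strains in place of 14. The BN change of Syt4 became 0.00 with quantile normalization (adjusted p = 0.996), and that of Vamp8, 0.08 as reported, was -0.29 within arrays 1 and 2 (adjusted p = 0.0273). The causes were not tested.

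With the replicate block, 19 members were called higher and 30 lower for ACI, 13 and 31 for COP, and 13 and 23 for BN. In ACI and COP, where the numbers did not meet the condition for pairing, the block ended the COP calls of Snap25 (-0.27, adjusted p = 0.0539) and Rab30 (0.58, adjusted p = 0.054), and in BN it ended none.

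Leaving out each array gave 16 to 19 higher and 24 to 30 lower for ACI, 11 to 13 and 22 to 30 for COP, and 10 to 12 and 14 to 23 for BN, where the 14 came without BN DES replicate 3. Calls in all 3 strains ran from 9 to 10 higher and 11 to 17 lower, strain differences from 3 to 6 in controls and 27 to 36 after DES, and response differences from 10 to 18.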
